A study of Mus musculus with 4 samples.

Results

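Transcripts of 7 genes, *Ccl2*, *Ccl7*, *Ccl8*, *Ccl11*, *Ccl12*, *Csf1* and *Cx3cl1*, were read in single cells sorted from intraperitoneal melanoma tumors. They were chosen by name, as secreted or shed proteins that act on monocytes, macrophages and eosinophils, and are 7 of the 33696 genes listed for each cell. *Ccl2* and *Ccl7* were found in most collagen-expressing cells of all 4 sorted populations, *Ccl11* was high in matrix-like fibroblasts, cycling or not, and in an *Inmt*-led group, and *Ccl8* and *Ccl12* were highest in residual immune cells.

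The tumors were B16-F1-OVA, a mouse melanoma line carrying ovalbumin, grown in the peritoneal cavity and harvested on day 14 from C57Bl/6 mice of both sexes. All animals were Cxcl13-cre-tdTomato mice crossed to R26R-eGFPflox mice, so every population carried both reporters, with tdTomato marking current activity of the Cxcl13 promoter and eGFP marking cells in which cre had been active at some time. Cells that were CD45neg CD31neg PDPNhi, a gate for cancer-associated fibroblasts (CAF), were sorted into tdTomato-neg eGFP+, tdTomato+ eGFP-neg, tdTomato+ eGFP+ and tdTomato-neg eGFP-neg populations, and each gave 1 droplet library of 3' ends. The number of mice behind each library was not given in the sources used here. With 1 library per population, no test between populations was possible, and "higher" or "lower" below means more than 2-fold apart, a log2 ratio of CPM (UMIs of a gene per 1000000 UMIs) above 1 or below -1. Intervals are exact 95% intervals (Poisson for CPM and their ratios, Clopper-Pearson for shares of cells) and cover counting error only.

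CCL2, CCL7 and CCL12 draw monocytes out of bone marrow and blood, chiefly through the receptor CCR2. CCL7 also binds other CC receptors, as CCL8 does. CCL11 (eotaxin) acts on CCR3, the receptor that defines eosinophil migration. CSF1 is the growth and survival factor of macrophages and acts through CSF1R, while CX3CL1 is made as a membrane-tethered chemokine, is released by proteases and binds CX3CR1 on monocytes and macrophages. In mice *Ccl2*, *Ccl7*, *Ccl8*, *Ccl11* and *Ccl12* are paralogues that lie side by side in a gene cluster, and inflammatory signals through NF-kB are known to raise several of them together.

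Of 24489 barcodes, 22691 cells passed the limits of 500 to 6000 genes and at most 10% mitochondrial UMIs, 6006, 4952, 920 and 10813 in the 4 populations in the order given above, with median UMI counts of 8399, 9154, 8670.5 and 5607. Clustering with all chemokine genes held out gave 21482 collagen-expressing, 622 melanoma-like and 587 immune-like cells. The 6 collagens used as markers summed to 21177 CPM in the collagen-expressing cells, against 1813 CPM in melanoma-like and 14513 CPM in immune-like cells, so the immune-like class as a whole carried much fibroblast RNA. In collagen-expressing cells the summed markers were 23.7 CPM for macrophages, 3.75 CPM for T and NK cells, 0.903 CPM for B cells and 6.57 CPM for endothelium. Of 22642 distinct kept barcodes, 49 occurred in more than 1 library. A doublet caller marked 0, 0, 3 and 251 cells in the 4 populations, and these calls were not relied on. Its scores ranked the cells for an alternative that removed the expected doublets, 310, 210, 7 and 1016 cells in the same order. Cells bearing *Xist* but no Y-linked transcript made up 43.6%, 65.5%, 63.4% and 56.7% of the cells that could be assigned to a sex, so each library held cells of both.

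Of the 7 members, 4 matched the RefSeq promoter table. Promoters are shown for *Ccl8* and *Ccl12*, the pair of members whose highest levels lay in the same immune clusters, and for *Csf1* and *Cx3cl1*, whose levels there were low or 0. Each run is 300 bases, 250 before and 50 after the transcription start, read 5′ to 3′ on the gene's own strand from RefSeq, build GRCm38.p6. The build used for the counts, GRCm39, differs, and none of these coordinates was used with the counts. Capitals mark GAGGAA on either strand (the core bound by PU.1, a myeloid transcription factor) and TATAAA in *Ccl8*, *Ccl12* and *Cx3cl1*, and a loose NF-kB pattern (GGG, any 5 bases, CC, on either strand) in *Csf1*.
*Ccl8*, chr11:82114935-82115234, + strand: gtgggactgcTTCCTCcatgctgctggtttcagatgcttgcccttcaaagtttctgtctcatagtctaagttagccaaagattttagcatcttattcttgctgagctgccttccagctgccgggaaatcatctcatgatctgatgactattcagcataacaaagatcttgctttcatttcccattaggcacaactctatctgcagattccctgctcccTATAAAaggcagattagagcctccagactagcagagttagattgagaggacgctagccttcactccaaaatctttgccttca
*Ccl12*, chr11:82101595-82101894, + strand: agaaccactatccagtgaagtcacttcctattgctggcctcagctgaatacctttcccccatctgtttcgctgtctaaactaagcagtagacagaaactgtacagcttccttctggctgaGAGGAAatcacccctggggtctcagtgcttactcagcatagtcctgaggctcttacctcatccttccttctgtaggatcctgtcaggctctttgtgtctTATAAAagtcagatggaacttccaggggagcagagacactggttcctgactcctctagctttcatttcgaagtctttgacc
*Csf1*, chr3:107760420-107760719, - strand: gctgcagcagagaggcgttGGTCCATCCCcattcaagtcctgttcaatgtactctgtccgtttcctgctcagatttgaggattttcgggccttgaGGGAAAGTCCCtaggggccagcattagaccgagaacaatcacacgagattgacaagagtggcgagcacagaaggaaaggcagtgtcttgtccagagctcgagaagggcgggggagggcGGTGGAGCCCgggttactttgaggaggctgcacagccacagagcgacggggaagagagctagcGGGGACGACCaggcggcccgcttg
*Cx3cl1*, chr8:94771930-94772229, + strand: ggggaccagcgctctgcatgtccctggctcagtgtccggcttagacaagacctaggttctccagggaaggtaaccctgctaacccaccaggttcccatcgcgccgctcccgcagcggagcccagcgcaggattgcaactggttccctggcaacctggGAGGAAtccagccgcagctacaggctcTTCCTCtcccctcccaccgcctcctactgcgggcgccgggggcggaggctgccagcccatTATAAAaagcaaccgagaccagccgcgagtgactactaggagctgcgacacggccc
GAGGAA or its reverse complement occurred once in *Ccl8*, from base -240, and once in *Ccl12*, from base -130, counted from the start site. TATAAA lay at nearly the same place in both, from -32 in *Ccl8* and from -31 in *Ccl12*. *Cx3cl1*, which had no UMI in immune clusters 1 and 2, held GAGGAA or its reverse complement at 2 places, from -93 and -66, and TATAAA from -6, so these runs did not separate the members high in immune clusters from the others. The *Csf1* promoter held neither of these runs and had 5 matches to the NF-kB pattern, of which those from -155 and -154 overlap. Over all 32851 mouse promoters of this length in the table, 28.3% held GAGGAA, 13.6% TATAAA and 50.8% the NF-kB pattern. The longest run of letters common to *Ccl8* and *Ccl12* was 11 bases and did not lie at the same offset. TGANTCA (AP-1) and TTNNGNAA (C/EBP), found in 7.81% and 40.7% of all promoters, had no match in these 4 windows. A match is a match of letters only, and binding was not measured.

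*Ccl2*, the main CCR2 ligand, was the leading chemokine transcript of the collagen-expressing cells and gave 31.6% of the UMIs of all 40 chemokine genes there, with *Ccl7*, its close relative, at rank 3 with 13.1%. *Ccl2* stood at 3356 CPM in tdTomato-neg eGFP+, 4306 CPM in tdTomato+ eGFP-neg, 3870 CPM in tdTomato+ eGFP+ and 2550 CPM in tdTomato-neg eGFP-neg collagen-expressing cells. Both tdTomato+ populations were above both tdTomato-neg populations, and the double-negative library was lowest. *Ccl7* stood at 1232, 1698, 1598 and 1235 CPM in the same order, so the tdTomato+ libraries were again the upper pair, with the other two level. Reads were counted at 3' ends, so CPM are not divided by transcript length. How reads matching more than 1 of these paralogues were assigned was not given in the sources used here.

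Melanoma-like cells had much less of both. *Ccl2* was at 302, 195, 40.8 and 477 CPM there in the order above, and *Ccl7* at 156, 53.9, 13.6 and 236 CPM, all below every collagen-expressing value. Pooled over libraries, *Ccl2* was 8.23-fold and *Ccl7* 7.06-fold higher in collagen-expressing cells (log2 ratios 3.04, interval 3.00 to 3.08, and 2.82, interval 2.76 to 2.88). Of the 7 members, 6 were higher in collagen-expressing than in melanoma-like cells, where 32.3% of the 16277 genes compared were higher and 14.3% lower. Besides *Ccl2* and *Ccl7* these were *Csf1* (log2 ratio 2.89), *Cx3cl1* (3.23), *Ccl11* (2.44) and *Ccl8* (1.14), and the exception was *Ccl12* at 0.22 (interval -0.48 to 1.02), from 17 UMIs in melanoma-like cells. All but 1 of those UMIs came from the double-negative library, and without that library the *Ccl12* ratio was 2.60. With classes set from marker UMIs, *Ccl11* was at 0.51 and *Ccl8* at 0.23, and both lost the call. The order held inside the 3 libraries with at least 50 melanoma-like cells, where the log2 ratio of *Ccl2* ran from 2.42 to 4.47 and that of *Csf1* from 2.64 to 4.01.

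The melanoma-like cells also carried collagen RNA, and the members were also read relative to it. Pooled, per 1000 UMIs of the 6 collagens, *Ccl2* gave 155 UMIs in collagen-expressing cells and 220 in melanoma-like cells. The corresponding values were 64.5 and 107 for *Ccl7*, 7.09 and 11.2 for *Csf1*, 6.65 and 14.3 for *Ccl11* and 0.315 and 0.393 for *Cx3cl1*. The values lay further apart for *Ccl8*, at 1.07 and 5.65, and for *Ccl12*, at 0.0832 and 0.835. In melanoma-like cells these rested on 115 UMIs of *Ccl8* and 17 of *Ccl12*. The pooled melanoma-like values come mostly from the double-negative library, with 418 of 622 cells, and the libraries did not all share their order. *Ccl2* per 1000 collagen UMIs was at 183, 154, 141 and 138 in collagen-expressing cells of the 4 libraries and at 249, 148, 45.8 and 227 in melanoma-like cells, so it was rarer in melanoma-like cells of both tdTomato+ libraries. *Ccl7* had the same order, and *Ccl11* was rarer in melanoma-like cells of all 3 reporter-positive libraries, while *Csf1* was more frequent there in all 4. How much of the melanoma-like signal was RNA from other cells was not tested.

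Shares of cells with a UMI depend on depth, so each cell was thinned to 2000 UMIs, which left out 2733 collagen-expressing, 27 melanoma-like and 109 immune-like cells. *Ccl2* was then found in 81.8% of collagen-expressing cells (interval 81.3 to 82.4), 27.2% of melanoma-like cells (23.7 to 31.0) and 78.2% of immune-like cells (74.3 to 81.9). *Ccl7* was found in 67.4%, 20.5% and 71.1%, and *Csf1* in 23.9%, 4.37% and 11.7%. *Ccl11* was found in 16.0%, 4.54% and 5.44%. Of collagen-expressing cells, 92.4% held at least 1 UMI of any member, against 36.6% of melanoma-like cells. Without thinning the shares were 96.3% and 76.5%, at median depths of 7255 and 17636.5 UMIs. *Cx3cl1* was found in 1.18% of collagen-expressing cells and in 0 of 595 melanoma-like cells, which allows a share of up to 0.504%. *Ccl12* was found in 0.384% of collagen-expressing and 0.336% of melanoma-like cells, shares that did not differ beyond counting error.

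**Figure D1:**
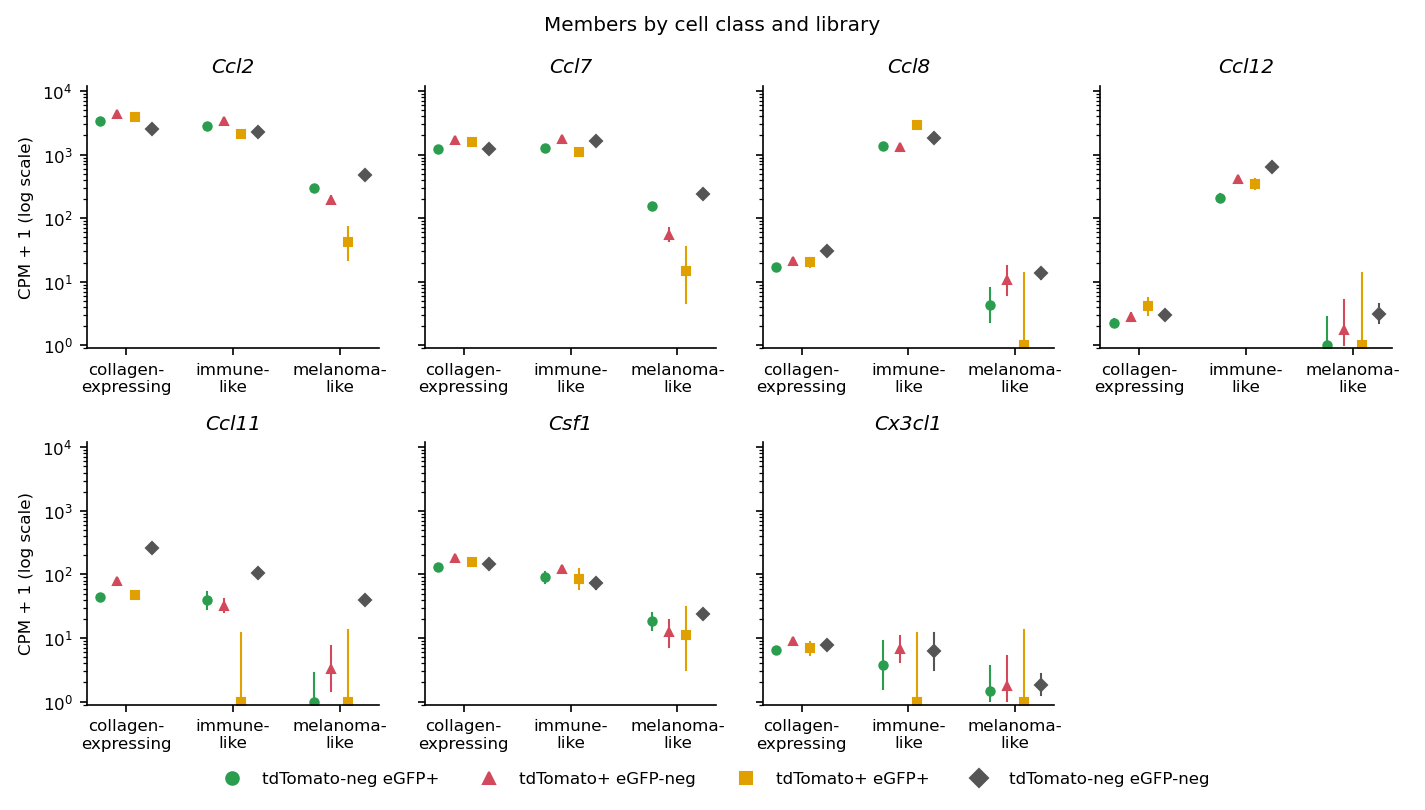
Each panel plots 1 member, with CPM + 1 on a log axis for the 3 cell classes, 1 point per library with its exact 95% counting interval. *Ccl2*, *Ccl7*, *Csf1* and *Ccl11* lie lower in melanoma-like cells than in collagen-expressing cells of the same library, while *Ccl8* and *Ccl12* peak in immune-like cells in all 4 libraries.

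*Ccl8* and *Ccl12* were far higher in immune-like than in collagen-expressing cells. *Ccl8* was at 15.8, 20.6, 19.2 and 29.2 CPM in the collagen-expressing cells of the 4 libraries, in the order above, and at 1356, 1331, 2903 and 1802 CPM in the immune-like cells. *Ccl12*, a mouse ligand of CCR2, was at 1.28, 1.79, 3.1 and 1.95 CPM in collagen-expressing and at 210, 417, 341 and 629 CPM in immune-like cells. The classes did not overlap for either gene. Pooled, *Ccl8* was 69.1-fold and *Ccl12* 240-fold lower in collagen-expressing than in immune-like cells (log2 ratios -6.11 and -7.91).

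Those were 2 of the 7 members lower in collagen-expressing than in immune-like cells, where 9.22% of 16250 genes were, and *Ccl11* was the 1 member higher, at a log2 ratio of 1.51, where 10.1% of genes were. *Ccl2* (0.17), *Ccl7* (-0.21), *Csf1* (0.60) and *Cx3cl1* (0.53) were within 2-fold. *Cx3cl1* rested on 24 UMIs in immune-like cells, and was at -0.96 in *Xist*-only cells and past 2-fold, at 1.72, in Y-only cells. For *Ccl11* the log2 ratio was 0.18 inside the tdTomato-neg eGFP+, 1.29 inside the tdTomato+ eGFP-neg and 1.35 inside the double-negative library. The call was lost without the double-negative library, at 0.91, and in Y-only cells, at 0.51.

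The immune-like class was mixed, and its clusters are therefore given separately. Cluster 0, with 255 cells, was led by keratins and other mesothelial genes such as *Krt7* and *Krt8* and held 16010 CPM of collagens. Cluster 3, with 49 cells, was led by *Igha* and held 28075 CPM of collagens. Clusters 1 (164 cells, led by *Mcemp1*, *Fabp7*, *Alox15* and *Cd5l*) and 2 (94 cells, led by *Nkg7*, *Ptgds* and *Bank1*) held 817 and 791 CPM of collagens and 14518 and 14770 CPM of the 8 macrophage markers, with median depths of only 2593 and 2228.5 UMIs. Cluster 4, with 25 cells, was led by the immunoglobulin gene *Iglc2*.

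In the *Mcemp1*-led cluster 1, *Ccl8* reached 3256 CPM (interval 3108 to 3410) and *Ccl12* 903 CPM (826 to 985). In the *Nkg7*-led cluster 2, *Ccl8* was at 2676 CPM and *Ccl12* at 794 CPM. The same clusters held *Ccl2* at 2332 and 1669 CPM and *Ccl7* at 1707 and 1497 CPM, within 2-fold of the collagen-expressing cells. *Csf1* was at 12.5 and 10.5 CPM, from 7 and 3 UMIs, and *Cx3cl1* had no UMI in either. Set against collagen-expressing cells, cluster 1 had 2 members higher (*Ccl8* at a log2 ratio of 7.17 and *Ccl12* at 9.0), where 19.5% of 16074 genes were higher, and 3 lower, where 38.4% were. Of the lower ones *Csf1* had a log2 ratio of -3.58, *Ccl11* rested on 1 UMI and *Cx3cl1* on 0.

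The immunoglobulin-led cluster 4 served as a comparison, since its 25 cells came from the same libraries but held 19.7 CPM of macrophage markers and 434 CPM of collagens. *Ccl2* was at 88.8 CPM there (18 UMIs), *Ccl7* at 19.7 CPM (4 UMIs) and *Ccl8* at 4.93 CPM (1 UMI). The other 4 members had no UMI, which allows up to 14.8 CPM.

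The little *Ccl8* and *Ccl12* of collagen-expressing cells was set against the macrophage RNA in the same cells. *Ccl12* gave 55.1, 62.0, 150 and 91.6 UMIs per 1000 macrophage-marker UMIs in the collagen-expressing cells of the 4 libraries and 43.1, 76.0, 48.3 and 95.9 in the immune-like cells, and pooled the ratios were 74.3 and 73.7. *Ccl8* gave 683, 713, 928 and 1370 in collagen-expressing cells against 278, 243, 411 and 275 in immune-like cells. The *Ccl12* ratios of the classes overlapped, whereas every *Ccl8* ratio of collagen-expressing cells was above every one of immune-like cells. The immune clusters ran from 181 to 327 for *Ccl8*, cluster 4 with its few UMIs aside.

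**Figure D2:**
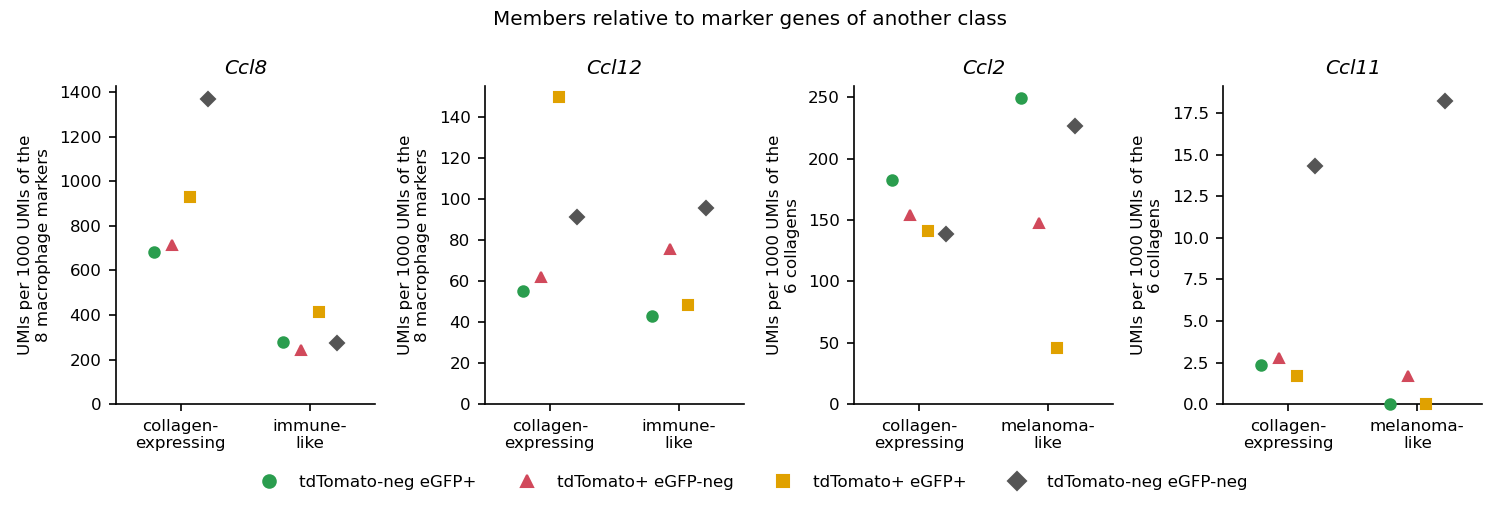
Points are libraries, and the y axes give UMIs of a member per 1000 UMIs of the 8 macrophage markers (*Ccl8*, *Ccl12*) or of the 6 collagens (*Ccl2*, *Ccl11*), without error bars. *Ccl12* overlaps between collagen-expressing and immune-like cells, with 1 library at 150, *Ccl8* lies higher in collagen-expressing cells, and *Ccl11* per collagen is high in the double-negative library in both classes shown.

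Among collagen-expressing cells 6 groups were told apart. There were 3713 matrix-like cells, 982 cycling matrix-like cells, 1858 *Inmt*-led cells left without a cell type name, 4422 hypoxic-inflammatory-like cells, 5896 mesothelial-like cells and 4611 cycling mesothelial-like cells. Summed markers of matrix fibroblasts stood at 6667 CPM in matrix-like and 3785 CPM in mesothelial-like cells, those of mesothelium at 262 and 2052 CPM, and those of hypoxic inflammatory fibroblasts at 4481 CPM in the hypoxic-inflammatory-like cells. The *Inmt*-led cells, with *Apod*, *Gsn* and *Penk* also among their leading genes, held 15663 CPM of matrix fibroblast markers and 4780 CPM of universal fibroblast markers (*Pi16*, *Dpp4* and others) but only 4897 CPM of the 6 collagens. They came almost wholly from the double-negative library (94.4%), had a median of 1740 UMIs and were *Xist*-only in 98.7% of assignable cells. The dissociation genes (*Fos*, *Jun* and others) summed to 9596 CPM there against 5331 CPM over all collagen-expressing cells.

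*Ccl11*, the eosinophil chemokine, separated these groups more sharply than any other member. In matrix-like cells it was at 498, 580, 421 and 501 CPM in the 4 libraries in the order above, and in mesothelial-like cells at 1.75, 3.22, 3.23 and 22.3 CPM. The groups did not overlap, and the libraries of the matrix-like cells were close together. Pooled, *Ccl11* was 50.0-fold higher in matrix-like cells (508 against 10.2 CPM, log2 ratio 5.64, interval 5.5 to 5.79), and within libraries the log2 ratio ran from 4.49 to 8.15. Hypoxic-inflammatory-like cells were also low, at 4.02, 10.2, 5.23 and 30.3 CPM, above the mesothelial-like cells of the same library in each case, and cycling mesothelial-like cells were at 2.62, 11.5, 7.46 and 22.2 CPM. Cycling matrix-like cells held 437 CPM pooled.

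Pooled, 2 of the 7 members were higher in matrix-like than in mesothelial-like cells, where 10.5% of 13869 genes were, and none was lower, where 10.7% of genes were. The other was *Ccl8*, whose log2 ratio of 1.00 (interval 0.86 to 1.14) lay just past the threshold and fell to 0.86 without the tdTomato-neg eGFP+ library. *Csf1* (0.93, interval 0.87 to 0.98) and *Cx3cl1* (0.87, interval 0.62 to 1.12) lay just inside it, and removing as many putative doublets as the loading would give took them to 1.03 and 1.13. *Ccl7* (0.30), *Ccl12* (-0.11) and *Ccl2* (-0.18) differed little. Inside single libraries, 4 members were higher in tdTomato-neg eGFP+ and 2 in each of the others, and 1 was lower in tdTomato+ eGFP+.

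The *Inmt*-led cells had the most *Ccl11* and the least *Ccl2*. *Ccl11* stood at 1062, 949 and 1030 CPM in the tdTomato-neg eGFP+, tdTomato+ eGFP-neg and double-negative libraries, from 68, 34 and 1754 cells. *Ccl2* stood at 553, 432 and 535 CPM in the same libraries, below every value of the other groups, of which the lowest was 2345 CPM. Pooled against all other collagen-expressing cells, *Ccl11* was 8.50-fold higher (log2 ratio 3.09) and *Ccl8* 3.55-fold higher (1.83), 2 members where 15.7% of 15969 genes were higher. Lower were 4 members, where 18.4% of genes were: *Ccl2* by 6.28-fold (-2.65), *Ccl7* by 3.26-fold (-1.70), *Cx3cl1* (-2.77, from 4 UMIs) and *Ccl12* (-1.26, from 3 UMIs). *Csf1* did not follow them, with 188 CPM and a log2 ratio of 0.33.

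The depth, sex mark and dissociation values given above moved with this group, and their part in the result was not tested. Inside the tdTomato-neg eGFP+ library, with 68 such cells, the log2 ratio was -2.60 for *Ccl2* and 4.71 for *Ccl11*, and inside the double-negative library -2.31 and 2.21. At 2000 UMIs per cell, which kept 777 of these cells, *Ccl2* was found in 35.5% of them (interval 32.2 to 39.0) against 79.7% to 87.8% in the other groups, and *Ccl11* in 74.6% (71.4 to 77.7) against 50.7% in matrix-like and 1.59% in mesothelial-like cells. *Ccl8* was found in 13.1% against 2.88% to 6.76%. *Ccl8* in the *Inmt*-led cells stood at 76.0 CPM beside 18.9 CPM of macrophage markers, 4013 UMIs per 1000, far above the 181 to 327 of the immune clusters.

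**Figure D3:**
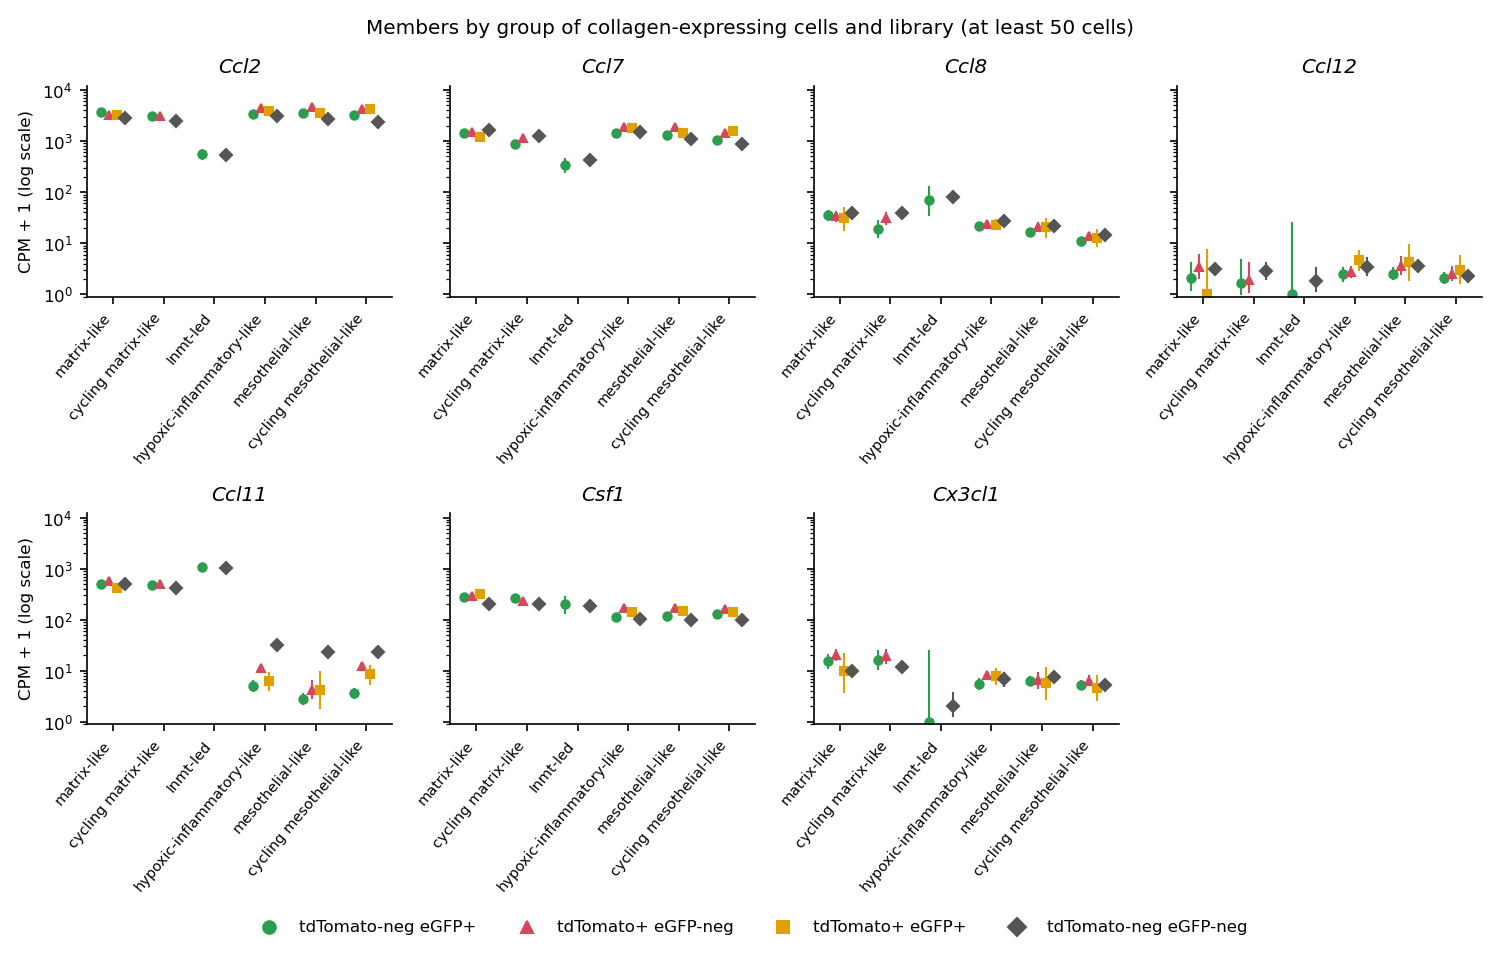
Each panel plots 1 member, with CPM + 1 on a log axis for the 6 groups of collagen-expressing cells, 1 point per library with at least 50 cells in the group and its exact 95% counting interval. *Ccl11* falls into a high set (matrix-like, cycling matrix-like, *Inmt*-led) and a low set, and *Ccl2* and *Ccl7* are lowest in the *Inmt*-led cells.

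Between the other 5 groups the pooled levels of *Ccl2* and *Ccl7* differed by less than 2-fold. In hypoxic-inflammatory-like cells *Ccl2* was at 3425, 4537, 3880 and 3033 CPM and *Ccl7* at 1418, 1874, 1796 and 1497 CPM, and pooled both were within 2-fold of all other collagen-expressing cells (log2 ratios 0.36 and 0.42). There *Ccl11* was the 1 member past 2-fold, lower at -4.06, where 9.88% of genes were lower and 2.93% higher. In mesothelial-like cells it was again *Ccl11* alone (-4.12, with 10.3% of genes lower and 4.3% higher). Cycling mesothelial-like cells had *Ccl11* (-4.09) and *Ccl8* (-1.16) lower, where 8.28% of genes were lower and 3.89% higher. Matrix-like cells had *Ccl11* higher (2.86, with 7.71% of genes higher and 11.6% lower), and cycling matrix-like cells *Ccl11* (1.86) and *Cx3cl1* (1.03), with 8.27% higher and 11.7% lower. These calls are pooled. Inside the double-negative library all 7 members of cycling matrix-like cells were within 2-fold. There 3 members were higher inside tdTomato-neg eGFP+, and 2 higher and 1 lower inside tdTomato+ eGFP-neg. Cycling mesothelial-like cells had 2 members lower inside the double-negative library and 1 inside each of the others.

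*Csf1*, the macrophage growth factor, was found in all 6 groups of collagen-expressing cells at levels within 2-fold of each other. It was at 132, 181, 158 and 144 CPM in the collagen-expressing cells of the 4 libraries, at 89.6, 121, 85.3 and 71.4 CPM in the immune-like class and at 17.4, 11.2, 10.2 and 23.1 CPM in melanoma-like cells. Within the collagen-expressing cells the pooled levels ran from 115 CPM in mesothelial-like through 127 CPM in cycling mesothelial-like, 142 CPM in hypoxic-inflammatory-like and 188 CPM in *Inmt*-led to 219 CPM in both matrix-like groups. Matrix-like exceeded mesothelial-like cells in every library, with log2 ratios from 0.83 to 1.27. The macrophage-marker-rich clusters 1 and 2 held 12.5 and 10.5 CPM of *Csf1*, the lowest values of any cluster with a UMI of it.

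*Cx3cl1*, the tethered chemokine, was scarce, at 5.47, 7.99, 5.85 and 6.88 CPM in the collagen-expressing cells of the 4 libraries. It was at 10.7 CPM in matrix-like, 12.8 CPM in cycling matrix-like and 0.996 CPM in *Inmt*-led cells, and between 4.53 and 6.27 CPM in the other groups. At this level a cell rarely held more than 1 UMI, and the highest count in a thinned cell was 3.

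The sorted populations differed mainly in *Ccl11*. Over all collagen-expressing cells *Ccl11* was at 43.4, 76.9, 45.9 and 263 CPM in the 4 libraries in the order above, so the double-negative library stood apart from the 3 reporter-positive ones. Its log2 ratio to the double-negative library was -2.60 for tdTomato-neg eGFP+, -1.78 for tdTomato+ eGFP-neg and -2.52 for tdTomato+ eGFP+ cells. In each of these comparisons it was the 1 member of 7 past 2-fold, where 7.26%, 8.65% and 10.3% of all genes were past 2-fold in either direction. Among Y-only cells the ratios were -1.73, -0.62 and -0.73, so the last pair was within 2-fold. The 3 comparisons share the double-negative library.

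Inside matrix-like cells this difference was not seen. There the log2 ratios of *Ccl11* to the double-negative library were -0.01, 0.21 and -0.25, and *Ccl11* was found in 50.5%, 52.9%, 38.5% and 50.7% of cells thinned to 2000 UMIs. The populations differed in how many of these cells they held. Matrix-like cells were 5.26%, 8.31%, 7.30% and 29.0% of the collagen-expressing cells of the 4 libraries, in the order above. Of all matrix-like cells, 79.7% came from the double-negative library, which was also the largest. Without the *Inmt*-led cells the ratios over all collagen-expressing cells were -2.46, -1.56 and -2.29. In mesothelial-like cells *Ccl11* remained lower in the reporter-positive libraries (-3.67, -2.79 and -2.79), at levels of 1.75 to 3.23 against 22.3 CPM. Melanoma-like cells of the double-negative library also held more *Ccl11* than those of the others, 38.3 CPM against 0, 2.25 and 0 CPM, and the part of RNA shed by other cells in these low values was not tested.

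The other members moved less between populations. *Ccl2* had log2 ratios to the double-negative library of 0.40, 0.76 and 0.60, and in mesothelial-like cells of 0.40, 0.84 and 0.43. *Ccl7* had -0.00, 0.46 and 0.37, and *Csf1* -0.13, 0.33 and 0.13. Within matrix-like cells *Csf1* was above the double-negative library in all 3 reporter-positive libraries, by log2 ratios of 0.49, 0.57 and 0.64. *Cx3cl1* passed 2-fold there in tdTomato+ eGFP-neg cells alone, at 1.10, where 4.59% of 11806 genes were past 2-fold in either direction.

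**Figure D4:**
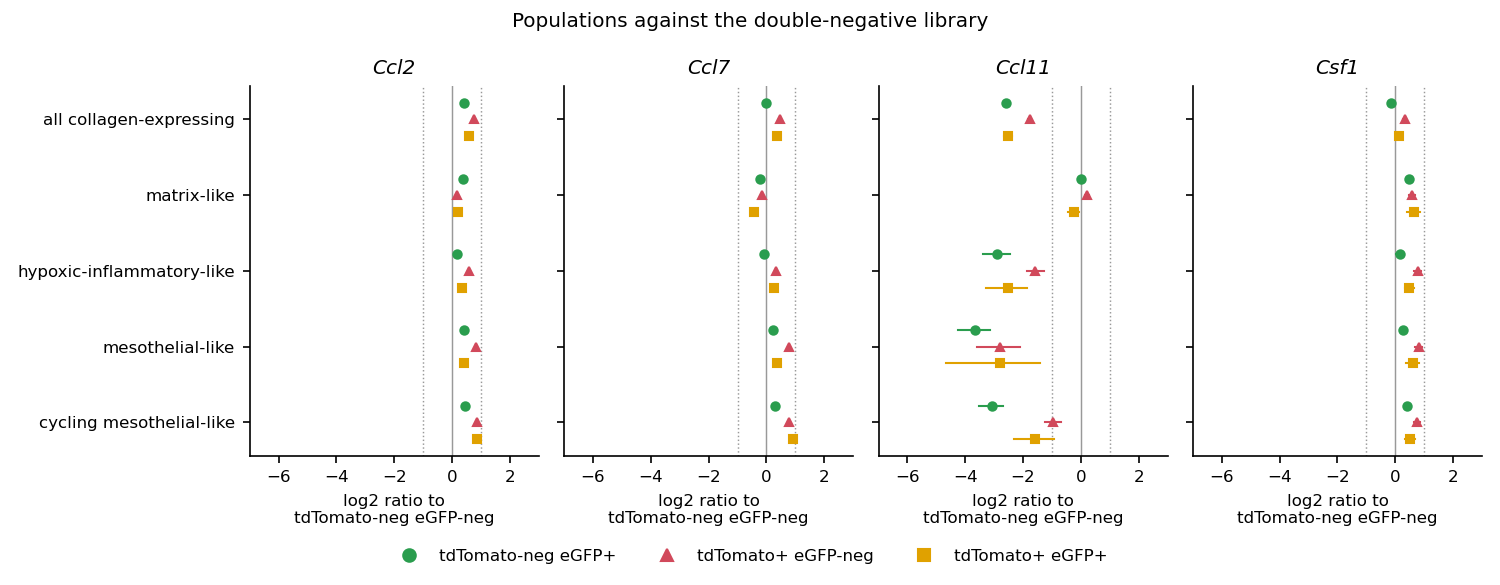
Each panel plots 1 of 4 members (*Ccl2*, *Ccl7*, *Ccl11* and *Csf1*), with the log2 ratio of each reporter-positive library to the double-negative library on the x axis for all collagen-expressing cells and for single groups, and exact 95% counting intervals. For *Ccl11* the points lie left of 0 over all cells and in hypoxic-inflammatory-like and mesothelial-like cells but near 0 in matrix-like cells, and the points of the other 3 members lie within the dotted 2-fold lines.

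Because the libraries differed in their mix of sexes, the members were compared between *Xist*-only and Y-only cells of the same group. In matrix-like cells (983 and 854 cells), *Cx3cl1* was at 6.27 CPM in *Xist*-only and 15.1 CPM in Y-only cells (log2 ratio -1.27, interval -1.73 to -0.82), and lower in *Xist*-only cells inside each of the 3 libraries with enough cells (-1.26, -1.65 and -1.03). It was the 1 member past 2-fold, where 3.31% of 11098 genes were in either direction. *Ccl11* was at 583 and 350 CPM (0.74), with within-library ratios of 0.31, 0.78 and 0.86, and *Ccl7* at 1724 and 1225 CPM (0.49). In mesothelial-like cells *Ccl11* was the 1 member past 2-fold (17.5 against 6.19 CPM, log2 ratio 1.5), where 5.34% of 11339 genes were. There *Csf1* was at 85.9 CPM in *Xist*-only and 134 CPM in Y-only cells (-0.64). The sex mark groups cells of different mice whose number was not given, so sex and animal cannot be told apart.

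Single cells varied widely in *Ccl2*. After thinning to 2000 UMIs, a collagen-expressing cell held a mean of 6.42 and a median of 4 *Ccl2* UMIs, with a highest count of 95, and the 10% of cells with most held 37.1% of its UMIs. *Ccl7* had a mean of 2.75 and a median of 1. *Ccl11* was concentrated, with 82.8% of its UMIs in the top 10% of collagen-expressing cells, and 44.2% in the top 10% of matrix-like cells. Most often a cell held 2 of the 7 members (46.7% of cells), followed by 3 (20.9%), 1 (20.2%), 0 (7.59%) and 4 (4.35%), and in matrix-like cells 3 were the most frequent (36.0%).

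*Ccl2* and *Ccl7* were found in the same cells. Of 18749 thinned collagen-expressing cells, 11523 held both, where the product of their shares gives 10335 (ratio 1.11, odds ratio 6.26). The odds ratio was 4.52 in matrix-like, 7.46 in mesothelial-like, 7.09 in hypoxic-inflammatory-like, 2.08 in *Inmt*-led and 6.87 in immune-like cells. It was therefore above 1 inside each group examined.

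*Ccl8* and *Ccl11* were the 1 pair of 21 that met the rule of at least 1.5 times the expected cells. The rule applied to pooled cells and to each library where at least 5 were expected. This ratio cannot exceed the inverse of either gene's share of cells. *Ccl2* and *Ccl7* were so common in thinned collagen-expressing cells that no pair holding either could meet the rule. The rule therefore could not judge those pairs. *Ccl8* and *Ccl11* were found together in 262 cells against 135 expected (ratio 1.94). By library the ratios were 1.82, 1.66 and 1.65, with 1.36 cells expected in the tdTomato+ eGFP+ library. Inside matrix-like cells the ratio was 1.13 and inside *Inmt*-led cells 1.10. No pair met the rule at 1000 or at 4000 UMIs per cell. *Ccl11* and *Csf1* were together in 953 cells against 719 (1.33), and inside matrix-like cells in 559 against 559 (1.00). *Ccl8* and *Ccl12* were together in 84 immune-like cells against 55.9 expected.

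**Figure D5:**
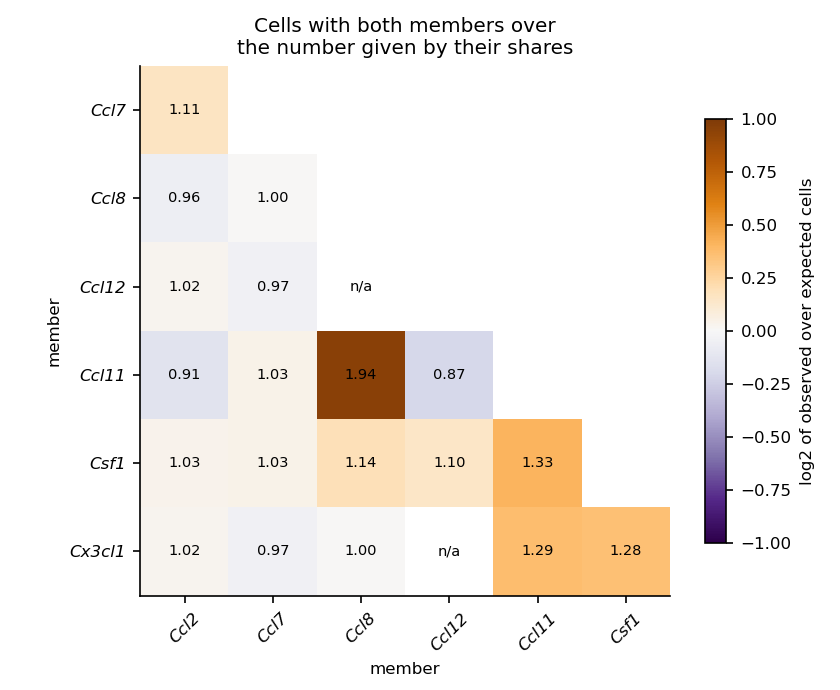
Each square is a pair of members in collagen-expressing cells thinned to 2000 UMIs, printed with the ratio of cells holding both to the number given by their shares, colored by its log2, and left as n/a where fewer than 5 cells were expected. The square of *Ccl8* and *Ccl11* stands out at 1.94, and most others lie near 1. Squares of *Ccl2* or *Ccl7* cannot reach 1.5, because of the high shares of cells with these genes.

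Receptors for these ligands lay mostly in the immune-like cells. Of 10 receptor genes, 8 had enough UMIs to compare, and 6 were lower and 2 higher in collagen-expressing than immune-like cells, where 9.22% of all genes were lower and 10.1% higher. *Ccr2* was at 0.189 CPM in collagen-expressing cells, 122 CPM in immune cluster 1 and 119 CPM in cluster 2, and *Csf1r* at 31.0, 213 and 77.0 CPM. *Cx3cr1* was at 8.47, 73.4 and 108 CPM. *Ccr3*, the eosinophil receptor for CCL11, was at or below 1.79 CPM in every class and cluster, and *Ccr8* had no UMI in any. The receptors higher in collagen-expressing cells were the scavenging receptors *Ackr1* and *Ackr2*, which bind chemokines without signalling in the usual way, though in immune-like cells they rested on 4 and 0 UMIs. In *Inmt*-led cells they stood at 18.9 and 15.4 CPM, against 1.51 and 0.249 CPM in the other collagen-expressing cells.

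Of 8 other ligands for the same cells, 6 were lower in collagen-expressing than in immune-like cells, against 9.22% of all genes, and none was higher. *Ccl4* was at 2.78 and 926 CPM, *Ccl6* at 2.95 and 494 CPM and *Ccl3* at 0.157 and 107 CPM. *Ccl24*, a second eotaxin that also acts on CCR3, was at 107 CPM in hypoxic-inflammatory-like cells and 27.8 CPM in matrix-like cells. Between these groups this was the reverse of *Ccl11*. In mesothelial-like cells *Ccl24* was at 26.5 CPM, close to its matrix-like level. *Il34*, the other ligand of CSF1R, was at 55.0 CPM in *Inmt*-led cells against 8.52 CPM in the other collagen-expressing cells.

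The 16 genes fixed as inducers (cytokine receptors and transcription factors known to raise these chemokines) were all compared. Of these, 13 were higher in collagen-expressing than melanoma-like cells and none lower, where 32.3% of all genes were higher and 14.3% lower. None was past 2-fold between collagen-expressing and immune-like cells, where 10.1% of all genes were higher and 9.22% lower. In hypoxic-inflammatory-like cells 2 were higher than in the rest, against 2.93% of all genes, the interleukin-1 receptor gene *Il1r1* (656 against 301 CPM) and *Il4ra* (161 against 69.4 CPM). In *Inmt*-led cells 6 were lower and 1 higher, where 18.4% of all genes were lower and 15.7% higher, with *Il1r1* at 81.4 against 393 CPM, *Nfkb1* at 129 against 298 CPM and *Ifngr1* at 134 against 40.3 CPM.

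Of 5 genes for proteases known to cut these ligands, 2 were higher in *Inmt*-led cells, where 15.7% of all genes were. They were the gelatinase gene *Mmp2* (309 against 54.8 CPM) and *Dpp4* (275 against 15.1 CPM), whose product trims the ends of chemokines such as CCL11. *Dpp4* also belongs to the universal fibroblast markers. *Adam10* and *Adam17*, the sheddases of CX3CL1, were at 54.4 and 36.8 CPM in collagen-expressing cells. Of 12 dissociation genes 2 and of 10 hypoxia genes 1 were higher in *Inmt*-led cells, close to the 15.7% of all genes. There 8 hypoxia genes were lower, against 18.4% of all genes. In hypoxic-inflammatory-like cells 5 hypoxia genes were higher, of which *Vegfa*, *Slc2a1* and *Ndrg1* are also among the markers that named that group. Of all genes, 2.93% were higher in that group. Over the whole chemokine family, 29 of 40 genes could be compared in *Inmt*-led cells. Of these, 18 were lower and 3 higher, where 18.4% of all genes were lower and 15.7% higher. The family includes every member but *Csf1*, so these counts repeat the calls of the members given above.

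The genes most like each member were read from 31 sums (melanoma-like cells, immune-like cells or 1 cluster of collagen-expressing cells in 1 library, with at least 50 cells) over 9114 genes, by Pearson's r of log2(CPM + 1). The sums share libraries and cells, and r is a description. *Ccl2* was most like *Ccl7* (0.96), *Tpm2* and *Anxa2* (both 0.95), and *Ccl7* most like *Ccl2*, *Npc2* and *Cebpb* (0.96, 0.93 and 0.93). *Ccl8* was most like *Srgn* (0.94), *Tgfbi* and *Abcg1* (both 0.92). *Ccl12* was most like *Bcl2a1b*, *Mir142hg* and *Fcgr1* (all 0.97). *Ccl11* was most like *Lpl*, *Srpx2* and *Gpx3* (0.97, 0.97 and 0.96). *Csf1* was most like the matrix genes *Fstl1*, *Loxl1* and *Fbn1* (0.98, 0.97 and 0.97), and *Cx3cl1* most like *Clec11a*, *Surf4* and *P3h1* (0.87, 0.86 and 0.86).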

How the data were processed

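Cells of 4 sorted populations, 1 library each, were measured with a 10x Genomics 3' kit. The files as deposited hold whole-number UMI counts per gene and cell for barcodes already called as cells, and the authors' notes name Cell Ranger 10.0.0, STAR, Seurat 5.0 and GRCm39, whereas the matrix headers name Cell Ranger 8.0.0. Neither tdTomato, eGFP nor cre is in the gene list, so reporter RNA was not analysed here. The study's own limits were applied, keeping barcodes with 500 to 6000 detected genes and no more than 10% mitochondrial UMIs.

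Counts were normalized and clustered in Seurat 5.3.0 under R 4.3.3 (2000 variable genes, 25 components, 20 neighbours, to 5 clusters of all cells and 7 of collagen-expressing cells), with all chemokine genes held out. Clusters were named from fixed marker lists, and the thresholds of naming were set after the data were seen. UMIs were summed per class, group and library and divided by the total (CPM) in Python 3.11.15 (pandas 2.3.3, numpy 2.4.6 and scipy 1.17.1), with Scrublet run from scanpy 1.11.5 and drawings made in matplotlib 3.10.9. A gene entered a comparison with at least 50 UMIs over both sides, and a side with at least 50 cells. No test and no p-value was computed, because a population had 1 library, and intervals cover counting error only. Genes named were the 7 members, the fixed lists of receptors, other ligands, inducers, proteases, dissociation and hypoxia genes, the chemokine family and the 3 genes most like each member. The members and lists were chosen with earlier results of these data known. Calculations were tested on simulated counts. The library totals were 63310850, 52046896, 10071954 and 90259852 UMIs.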

Additional observations from a re-analysis of the deposited data

How the results depend on the processing

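No paired analysis was possible because each population had 1 library and the labels give no replicate numbers. The count of members higher in collagen-expressing than melanoma-like cells (6) was 4 with classes set from marker UMIs, where *Ccl8* (0.23) and *Ccl11* (0.51) lost the call, 7 in 3 alternatives (expected doublets removed, mean over libraries, double-negative library left out), where *Ccl12* gained it, and 6 in the others; restriction to *Xist*-only or Y-only cells was not run for it, with under 50 melanoma-like cells. Against immune-like cells the count of 1 became 0 without the tdTomato-neg eGFP-neg library, 3 with a mean over cells and 3 at a log2 threshold of 0.25. In Y-only cells *Ccl11* (0.51) lost that call and *Cx3cl1* (1.72) gained it. Chosen after seeing the data, immune clusters 1, 2 and 4 alone also gave 3. These were *Ccl11* at 4.40, *Csf1* at 3.97 and *Cx3cl1*, which had no UMI in those clusters. *Ccl2*, at 0.94, stayed within 2-fold. The 2 members higher in matrix-like than mesothelial-like cells became 4 with the expected doublets removed and 5 at a log2 threshold of 0.25. The count was 1 with classes set from marker UMIs, without the tdTomato-neg eGFP+ library and with a mean over cells. *Csf1* also passed 2-fold at the 5% mitochondrial limit (1.00), with 15 or 40 components (both 1.04) and in *Xist*-only cells (1.29). Without the double-negative library *Csf1* (1.18) and *Cx3cl1* (1.61) passed it, as they did with a mean over libraries (1.05 and 1.21). *Cx3cl1* also passed it in Y-only cells (1.30). *Ccl8* lost the call with 15 components, in *Xist*-only cells, without the double-negative library and with a mean over libraries (0.84 to 0.99). The single member 2-fold apart from the double-negative library became 0 in Y-only cells for tdTomato+ eGFP-neg (*Ccl11* -0.62) and for tdTomato+ eGFP+ (*Ccl11* -0.73), 2 in *Xist*-only cells for tdTomato-neg eGFP+, 2 with a mean over cells for tdTomato+ eGFP+, and 5 at a log2 threshold of 0.25 for each. In Y-only cells *Ccl11* of tdTomato-neg eGFP+ was at -1.73. Leaving out *Inmt*-led cells, also chosen after seeing the data, kept each count at 1. The count of 1 pair meeting the rule of 1.5 times the expected cells became 0 with thinning to 1000 or to 4000 UMIs. It became 2 when the double-negative (tdTomato-neg eGFP-neg) library was left out. The share of collagen-expressing cells with a member, 92.4%, was 91.4% without the tdTomato+ eGFP-neg library, 93.6% without the double-negative library, 83.6% at 1000 UMIs and 96.8% at 4000 UMIs. Of 673 log2 ratios of single members under alternatives, 51 crossed the 2-fold threshold and 26 changed sign, none of them a ratio past 2-fold. Causes of these changes were not tested, and shares of all genes at a log2 threshold of 0.25 are not given here. Melanoma-like and immune-like cells were few, and *Ccl12* and *Cx3cl1* in collagen-expressing cells were near the limit of detection per cell.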
